A study of Mus musculus with 4 samples.

Results

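The AP-1, Batf and Bach factors are 10 genes of the basic leucine zipper class: Fos, Fosb, Fosl1, Fosl2, Jun, Junb, Jund, Batf, Bach1 and Bach2. They were chosen by name, and all 10 were found among the 50600 genes of the count tables. RNA was sequenced in 4 libraries of mouse primary cells of strain C57BL/6NJ, all labelled as regulatory T cells, which are CD4 T cells defined by the factor Foxp3 that restrain immune responses. The libraries form 1 group, numbered as replicates 1 to 4 in the labels, which list 4 biosamples and 1 donor record. The labels record no sex, age or tissue of origin, and no treatment. They cite a protocol for differentiating CD4 T cells, and the column names inside the files carry the words mmTreg and activated beside a 0 h mark. No second condition was analysed here, so the factors were compared with one another within each library and their spread between libraries was described. Nothing in the labels says whether the replicates share an animal or a culture, so the p-values here speak of the spread among these 4 samples alone, and that spread may be technical.

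Total counts were 25573253, 62090744, 23000465 and 61943411 in replicates 1 to 4. Levels are given as TPM, that is, counts corrected for exon length and scaled to the same sum in each library. The T cell genes Cd4 (1067 ± 31.4 TPM) and Trac (3435 ± 137 TPM) were abundant, while Foxp3, which defines the labelled cell type and was named after its value was seen, lay at 8.28 ± 0.867 TPM and its companion Ikzf2 at 1.34 ± 0.194 TPM (SD, n = 4). In the same list of defining genes Il2ra lay at 5.52 ± 2.76 TPM and Ctla4 at 7.77 ± 0.959 TPM, but Tnfrsf18 at 107 ± 3.80 TPM. The name regulatory T cell is taken from the labels, and the identity of the cells was not tested. All 8 B cell markers had counts, with a summed level of 56.9, 39.9, 42.7 and 19.4 TPM in replicates 1 to 4, and 6 of the 7 with enough counts for a test varied between libraries by the edgeR test described with the spread of the factors. Sums for the other cell types ran from 14.7 to 17.7 TPM for macrophage and monocyte markers, from 0.658 to 1.31 TPM for dendritic cell markers, from 120.3 to 129 TPM for CD8 and natural killer markers, from 1.29 to 2.78 TPM for granulocyte and mast cell markers and from 146 to 175 TPM for stromal and endothelial markers. The CD8 and natural killer sum was mostly Prf1 (75.3 ± 2.76 TPM) and Cd8b1 (39.95 ± 2.55 TPM), and the stromal and endothelial sum mostly Pecam1 (155 ± 14.7 TPM). The rest of the CD8 and natural killer list was low, with Nkg7 at 4.65 ± 0.785 TPM, Cd8a at 0.794 ± 0.288 TPM and Gzmb lowest at 0.485 ± 0.180 TPM. In bulk RNA, fewer cells of a type and less RNA per cell cannot be told apart.

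Basic leucine zipper proteins bind DNA only as dimers. Jun proteins pair with one another or with Fos proteins, and the dimer, called AP-1, binds the palindrome TGANTCA and carries signals from the T cell receptor and from growth factors to target genes. Fos proteins cannot pair with themselves and depend on a Jun partner. Batf lacks a transactivation domain, takes the place of Fos beside a Jun protein and works with Irf4 or Irf8. Bach1 and Bach2 pair with small Maf proteins and repress genes, and Bach2 in T cells holds back effector programmes and favours a resting state.

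Of the 10 factors, 8 reached 1 TPM in all 4 libraries, where 45.7% of protein-coding genes and 23.1% of all genes did so. The levels fell into a steep order, with Jund at the top, Junb next, Batf and Bach2 close together below them, then Jun, Fos and Bach1, and Fosl2, Fosb and Fosl1 at the foot. The summed level of the 10 factors was 1072, 1049, 1210.0 and 1072 TPM in replicates 1 to 4. The Jun family made up 76.6% ± 1.13 of this sum, the Bach family 10.2% ± 0.394, Batf 9.40% ± 1.16 and the Fos family 3.72% ± 0.225 (SD, n = 4).

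**Figure D1:**
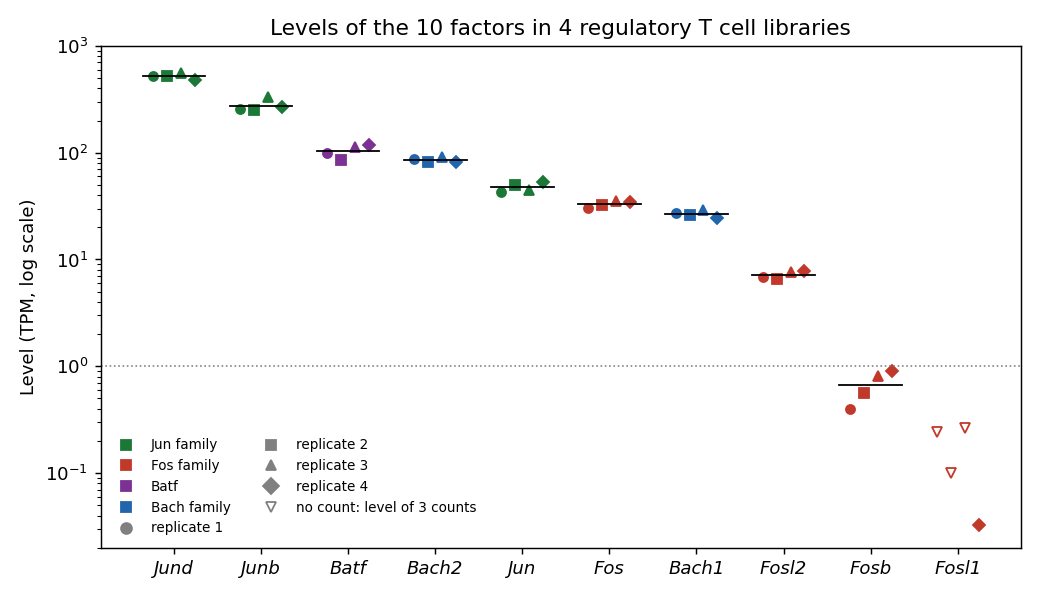
Level of each factor in each library, in TPM on a log scale; marks are replicates 1 to 4, black lines are means and the dotted line is 1 TPM. Open triangles give the level that 3 counts would have had where Fosl1 had no count. Jund sits highest, between 485 and 557 TPM, and Fosb lies below 1 TPM in every library.

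Jund, a Jun protein known for steady expression in resting cells, had 522, 518, 557 and 485 TPM in replicates 1 to 4 (520.3 ± 29.3 TPM, SD, n = 4). It ranked 245 among all genes by mean TPM. The 4 libraries lay close together, with a highest to lowest ratio of 1.15. The gene (ENSMUSG00000071076.6) lies on chromosome 8, 70698949 to 70700616, on the plus strand of build mm10, in a single exon block of 1668 bases.

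Junb, a Jun protein that in T cells pairs with Batf, had 254, 249, 332 and 269 TPM in replicates 1 to 4 (276 ± 38.1 TPM, SD, n = 4). Replicate 3 stood above the other libraries, which lay between 249 and 269 TPM. AP-1 and NFAT targets went both ways in replicate 3. Il2ra, an interleukin-2 receptor chain, was highest there, at 9.13 TPM against 3.11 to 6.22 TPM in the other libraries. Cd40lg, the CD40 ligand, was lowest there, at 259 TPM against 271 to 273 TPM, and Cd69, an early activation marker, peaked in replicate 2 at 70.6 TPM. Their part in the Junb level was not tested. Junb (ENSMUSG00000052837.6) lies on chromosome 8, 84974484 to 84978718, on the minus strand.

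Jun, the founding member known as c-Jun, had 43.3, 49.7, 44.6 and 52.7 TPM in replicates 1 to 4 (47.6 ± 4.43 TPM, SD, n = 4). Replicates 2 and 4, which were the more deeply sequenced, were the higher pair. Jun (ENSMUSG00000052684.4) lies on chromosome 4, 95049034 to 95052222, on the minus strand, also as a single exon block. Within the Jun family, Jund supplied 61.7% ± 2.13 of the TPM, Junb 32.6% ± 2.33 and Jun 5.67% ± 0.790 (SD, n = 4).

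Fos, the classic immediate early gene that signals raise within minutes, had 30.3, 32.1, 35.4 and 34.4 TPM in replicates 1 to 4 (33.1 ± 2.32 TPM, SD, n = 4). It supplied 80.8% ± 0.820 of the TPM of its family. Fos (ENSMUSG00000021250.13) lies on chromosome 12, 85473890 to 85477273, on the plus strand. Fosl2, also called Fra-2, had 6.78, 6.60, 7.69 and 7.78 TPM in replicates 1 to 4, on 477 to 1350 counts. The pair of replicates 3 and 4 lay above the pair of replicates 1 and 2 for Fos and Fosl2 alike.

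Fosb, like Fos an immediate early gene, had 0.397, 0.558, 0.816 and 0.912 TPM in replicates 1 to 4, on 18, 61, 34 and 102 counts. Its highest library was 2.30-fold above its lowest, the widest relative range among the 9 factors with counts in all 4 libraries. The exact Poisson 95% interval of replicate 1, 0.235 to 0.627 TPM, overlapped those of replicate 2 (0.426 to 0.716 TPM) and replicate 3 (0.565 to 1.14 TPM), and lay below that of replicate 4 (0.743 to 1.11 TPM). These intervals cover counting error only. Fosl2 (ENSMUSG00000029135.10) lies on chromosome 5, 32135801 to 32157842, on the plus strand, and Fosb (ENSMUSG00000003545.3) on chromosome 7, 19302696 to 19310051, on the minus strand.

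Fosl1, also called Fra-1 (ENSMUSG00000024912.5; chromosome 19, 5447703 to 5455945, plus strand), had 1 count over the 4 libraries, in replicate 4. In replicates 1, 2 and 3 it had none, where 3 counts would have given 0.242, 0.1003 and 0.263 TPM. Fosb stood 1.64-fold above this 3-count level in replicate 1, 5.56-fold in replicate 2 and 3.10-fold in replicate 3. These folds leave out counting error and are not lower bounds. In replicate 1 the exact Poisson interval of Fosb, 0.235 to 0.627 TPM, overlapped that of Fosl1, whose upper limit was 0.298 TPM. In replicates 2, 3 and 4 the Fosb interval lay above that of Fosl1. Fosl1 was not detectable above the 3-count levels at this depth. Of its 50-base words, taken every 10 bases, 45.2% lie in Ccdc85b, a gene on the opposite strand at 189 TPM, and the counts were made with the strand setting 2, which keeps such partners apart.

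Batf had 99.8, 84.8, 112 and 117 TPM in replicates 1 to 4 (103 ± 14.4 TPM, SD, n = 4). Replicate 2 was the lowest and replicates 3 and 4 the highest. Batf is required in T helper 17 and follicular helper cells and in tissue regulatory T cells. The gene (ENSMUSG00000034266.5) lies on chromosome 12, 85686669 to 85709087, on the plus strand, with 955 exon bases, the shortest of the 10. Its relatives were near the floor, with Batf2 at 0.0635 ± 0.0613 TPM and Batf3 at 0.0627 ± 0.0317 TPM, and Batf3 had 1 count in each library.

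Bach2 had 88.0, 82.0, 92.0 and 81.6 TPM in replicates 1 to 4 (85.9 ± 5.03 TPM, SD, n = 4). Its lowest library was replicate 4, which also had the lowest B cell marker sum, and B cells are known to use Bach2, but its highest library was replicate 3 and that of the B cell markers was replicate 1. The part of B cells in the Bach2 level was not tested. Bach1, which senses heme, had 27.2, 26.4, 28.9 and 24.3 TPM (26.7 ± 1.90 TPM, SD, n = 4), with the same order of libraries as Bach2. Bach2 (ENSMUSG00000040270.16) lies on chromosome 4, 32238804 to 32586108, and Bach1 (ENSMUSG00000025612.5) on chromosome 16, 87698945 to 87733346, both on the plus strand.

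Upstream sequence was available from RefSeq (GRCm38.p6) for 9 of the 10 factors, Fosl1 not among them, and 250 bases before each start were searched on both strands. Stretches are shown for the genes that held an AP-1 or CRE type motif, since these are the sites the factors themselves can bind, and for Fos because it also held a TATA box. Capitals mark the CRE core TGACG, the 8-base AP-1 variant TGACATCA or the TATA box TATAAA, read 5′ to 3′ on the gene's own strand.
Fos, chr12:85473749-85473874, plus strand: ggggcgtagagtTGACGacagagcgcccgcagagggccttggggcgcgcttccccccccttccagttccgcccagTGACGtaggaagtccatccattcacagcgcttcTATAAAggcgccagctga
Fosb, chr7:19310089-19310117, minus strand: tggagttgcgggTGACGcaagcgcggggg
Jun, chr4:95052248-95052279, minus strand: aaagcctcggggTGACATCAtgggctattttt
Junb, chr8:84978838-84978866, minus strand: gcttcctgacagTGACGcgagccgcctcc
Batf, chr12:85686610-85686638, plus strand: tttctaacttgtTGACGtttccgcccatg

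The CRE core was present in 4 of the 9 windows and in 17.9% of 32536 RefSeq windows of the same length. It lay 66 to 62 and 129 to 125 bases before the start in Fos, 60 to 56 in Fosb, 106 to 102 in Junb and 98 to 94 in Batf. TGACATCA, found in 2.84% of all windows, lay 45 to 38 bases before the start of Jun. TATAAA, found in 12.3%, lay 33 to 28 bases before the start of Fos. The AP-1 site TGANTCA (6.73% of all windows) and the CRE TGACGTCA (1.56%) matched in 0 of the 9. The CArG box (1.48%) and TGACNNNGC (10.2%), the core of the antioxidant element, also matched in 0 of the 9. Sequence farther upstream than these windows was not searched, so sites lying there could not be seen. The promoter boxes CCAAT (33.8% of all windows) and GGGCGG (33.0%) matched in 3 and 6 of the 9. The CRE core lies within the CRE and can overlap TGACNNNGC, and it was added to the search after the sequences had been seen. The RefSeq start lay within 51 bases of the start of the counted gene for Fos, Fosb, Jun, Junb, Batf and Bach1, but 671 bases from it for Fosl2, 1210 for Jund and 178631 for Bach2, so these 3 windows may not be those that drive the counted transcripts.

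**Figure D2:**
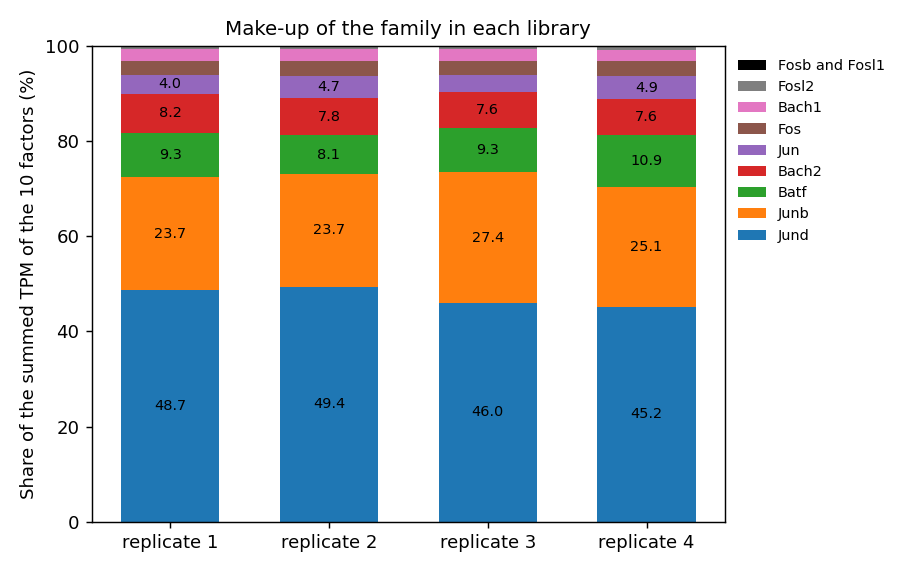
Share of the summed TPM of the 10 factors taken by each, as stacked bars for replicates 1 to 4, with shares above 4% printed. Jund takes between 45.2% and 49.4% in every library, and Fos, Bach1, Fosl2, Fosb and Fosl1 form thin bands at the top.

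The balance between families was compared within each library, since these proteins compete for partners and DNA sites. The Jun family stood 21.8-, 20.8-, 21.2- and 18.6-fold above the Fos family in replicates 1 to 4, a mean log2 ratio of 4.36 ± 0.10 (SD, n = 4), on 844 ± 59.6 TPM against 40.9 ± 3.10 TPM. Batf by itself exceeded the whole Fos family, by a log2 ratio of 1.33 ± 0.15 per length, though not in counts uncorrected for length. Jund exceeded Jun and Junb together by 0.69 ± 0.13 on the log2 scale. The Fos and Jun families together stood 7.85-fold above the Bach family, a log2 ratio of 2.97 ± 0.05. Bach2 stood 3.21-fold above Bach1, with 3.22-, 3.10-, 3.18- and 3.35-fold in replicates 1 to 4. Each of the 6 ratios, Batf to Bach2 included, had the same sign in all 4 libraries at these lengths. Flipping signs over the libraries gave an exact two-sided p of 0.125 for each ratio. Benjamini-Hochberg adjustment over the 6 left it at 0.125, which is the smallest p that sign flips over 4 libraries can give, so this test cannot reach 0.05.

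Along the order of levels, neighbours were separated unevenly. Their library ranges did not overlap in 8 of the 9 neighbouring pairs. Batf and Bach2 were the exception, with a log2 difference of 0.26 ± 0.20 (SD, n = 4) that was positive in 4 of 4 libraries but ran from 0.05 in replicate 2 to 0.52 in replicate 4. Fos and Bach1 were the next closest, at 0.31 ± 0.14, followed by Jun and Fos at 0.52 ± 0.14. Bach2 exceeded Jun by 0.85 ± 0.21 and Jund exceeded Junb by 0.92 ± 0.15. The widest steps with counts in all libraries were Junb over Batf (1.42 ± 0.17), Bach1 over Fosl2 (1.87 ± 0.17) and Fosl2 over Fosb (3.30 ± 0.37). Exact sign flips, two-sided, again gave p = 0.125 for all 9 pairs, and the same after adjustment over the 9.

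The place of a factor in this order rests on the length correction. Bach2 has 9940 exon bases and Batf 955, so per count Bach2 was the higher, at 244.6 ± 15.9 counts scaled by library total only (CPM) against 28.3 ± 4.29 CPM for Batf. On the CPM scale Bach2 nearly equalled Jund (248.6 ± 14.95 CPM), and Batf to Bach2 had a log2 ratio of -3.12 in place of 0.26. Fos to Bach1 (-1.08) and Batf to the Fos family (-0.62) also turned. Ratios that kept their sign changed in size. The Fos and Jun families to the Bach family fell from 2.97 to 0.83 and Jund to Jun plus Junb from 0.69 to 0.15. The Jun family to the Fos family fell from 4.36 to 3.44, and Bach2 to Bach1 grew from 1.68 to 2.37. Levels per length are used for comparing genes, and with the length of the longest annotated transcript in place of all exon bases, a scale added after the data had been seen, every one of the 10 factors kept its place in the order. At that length Batf exceeded Bach2 by 0.10 ± 0.20 in place of 0.26 ± 0.20 on the log2 scale, the sign was not the same in all 4 libraries, and the exact sign-flip p was 0.375.

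**Figure D3:**
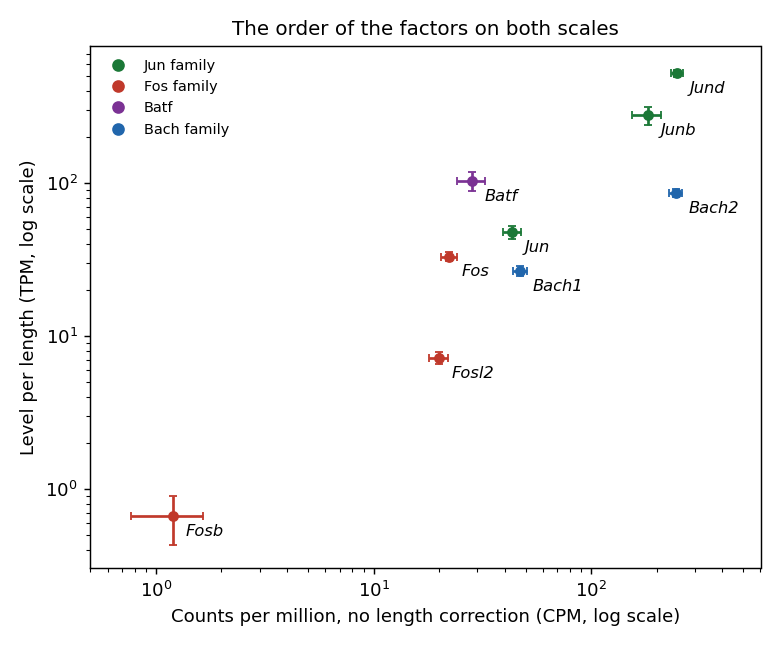
Mean level per length in TPM against mean CPM without length correction for the 9 factors with counts in all libraries, both on log scales; bars are SD over the 4 libraries. Bach2 and Jund share nearly the same CPM, at 244.6 and 248.6, while their TPM differ, at 85.9 and 520.3.

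Spread between libraries was tested over all 12554 genes with enough counts, by edgeR's residual deviance of an intercept-only fit at the dispersion trend, at a Benjamini-Hochberg adjusted p of 0.05. Of these genes 142 were called variable, or 1.13%, and the call was made for 0 of the 9 factors tested. Fosl1 did not pass the filter on low counts. In simulated counts the test found 41 of 100 genes changed 1.5-fold in 1 library and 81 of 100 changed 2-fold, so smaller changes can be missed. The test sets a gene against others of like abundance, not against counting noise. Against counting noise alone, chi-square per degree of freedom for the 9 factors ran from 5.36 for Fos to 118 for Junb. At an unadjusted p under 0.05 there were 2 factors of 9, against 5.23% of all genes tested. DESeq2's dispersion trend also called 0 of 9. The 2 factors were Batf, with an edgeR p of 0.00493 (adjusted 0.255, and 0.202 to 1.000 over 9 alternatives), and Junb, with an edgeR p of 0.0103 (adjusted 0.424, and 0.0599 to 1.000 over 9 alternatives). With replicate 2 left out the edgeR p of Batf was 0.176, and with replicate 3 left out that of Junb was 0.437. The highest library was 1.38-fold above the lowest for Batf and 1.33-fold for Junb. For Jund, Bach2, Fos, Bach1, Fosl2 and Jun the ratio of highest to lowest library lay between 1.13 and 1.22.

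The libraries were also split by depth, a split chosen after the data had been seen. On TMM-scaled CPM, Jun was higher in both deeper libraries (replicates 2 and 4) than in both shallower ones (1 and 3), at 46.8 against 40.2, a log2 difference of 0.22. Jund, Bach2 and Bach1 were lower in both deeper libraries, with log2 differences of -0.11, -0.14 and -0.15. The other 5 factors overlapped. So 1 of the 9 factors was higher in both deeper libraries and 3 were lower, where 14.7% and 14.2% of all genes tested were. With 4 libraries many genes separate in this way by chance, so the split by itself does not show an effect of depth. The part of depth was not tested.

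**Figure D4:**
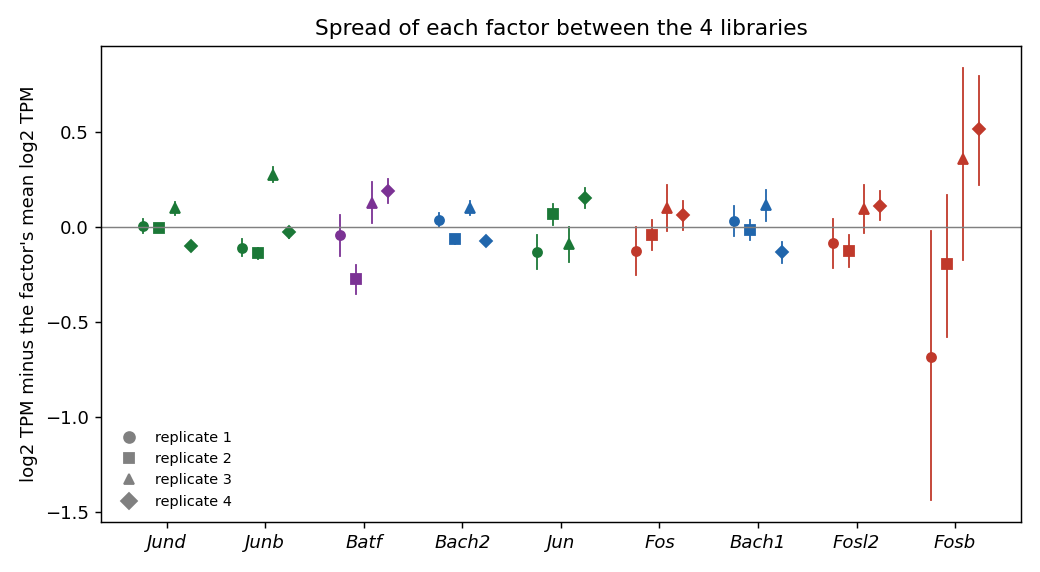
Deviation of each library's log2 TPM from the factor's own mean over 4 libraries, for the 9 factors with counts in all of them; vertical lines are exact Poisson 95% intervals of the counts. Junb is raised in replicate 3 and Batf is lowered in replicate 2, while Fosb has the widest counting error.

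The partners of these factors were measured with them. All 3 small Maf genes that pair with Bach were detected, Mafk (56.3 ± 2.68 TPM), Mafg (16.6 ± 1.15 TPM) and Maff (3.305 ± 0.367 TPM), and their sum of 76.2 ± 3.66 TPM was below the Bach sum of 113 ± 6.80 TPM. The Batf partners Irf4 (11.04 ± 0.387 TPM) and Irf8 (4.80 ± 1.29 TPM) summed to 15.8 ± 1.59 TPM, well below Batf per length. This gap rests on the length correction. Replicate 2 had 879 counts for Irf4, 543 for Irf8 and 1420 for Batf, and replicate 4 had 929, 418 and 2003. Of 8 large Maf and Nfe2 family genes 3 were detected, led by Nfe2l2 (88.6 ± 5.86 TPM), which activates the antioxidant genes that Bach1 represses, and Nfe2l1 (79.7 ± 4.32 TPM). Maf followed at 2.57 ± 0.480 TPM, and Nrl had no count. Of 13 Atf, Creb and Jdp2 genes 10 were detected, from Atf4 (301 ± 13.2 TPM), Atf6b (135 ± 11.9 TPM) and Creb3 (70.3 ± 1.27 TPM) down to Creb5 with no count. None of these lists held a gene called variable, where 1.13% of all genes tested were called. The share detected was 100% for the small Maf genes, 37.5% for the large Maf and Nfe2 genes and 76.9% for the Atf list, against 45.7% of protein-coding genes.

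Genes that drive or remove AP-1 were detected more often than the 45.7% of all protein-coding genes. Of 18 upstream kinases 17 were detected, with Rps6ka1 (278 ± 11.1 TPM), Prkcq (266 ± 14.98 TPM), which couples the T cell receptor to AP-1, and Mapk14 (192 ± 5.95 TPM), the p38 kinase, highest, and Mapk10 without a count. All 6 serum response and ternary complex genes, which switch on Fos, were detected, from Mrtfa (179 ± 9.40 TPM), Srf (157 ± 11.2 TPM) and Elk4 (124 ± 12.1 TPM) to Elk1 (17.4 ± 0.863 TPM). Of 12 turnover genes and cofactors 11 were detected, among them Gsk3a (228 ± 7.15 TPM) and Men1 (84.2 ± 4.33 TPM), whose product binds JunD, with Mapk8ip1 lowest (0.135 ± 0.0971 TPM). None of these genes was called variable, where 1.13% of all genes tested were.

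Other immediate early genes set a frame for Fos and Fosb. Of 16 such genes 14 were detected (87.5%, against 45.7% of protein-coding genes), at a median of 99.7 ± 5.04 TPM. Dusp2 (388 ± 21.3 TPM), Nfkbia (381 ± 15.05 TPM) and Btg2 (359 ± 16.6 TPM) led and Ier3 (0.171 ± 0.0750 TPM) was lowest. Fos, at 33.1 TPM, and Fosb, at 0.671 TPM, lay below that median. None was called variable between libraries, where 1.13% of all genes tested were.

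Targets of the factors were uneven. Of 12 genes that Bach1 represses 8 were detected, led by the ferritin chains Fth1 (1604 ± 66.2 TPM) and Ftl1 (760.5 ± 28.5 TPM) and by Taldo1 (203 ± 5.05 TPM), while Me1 had no count. Of 12 genes that Bach2 restrains in T cells 4 were detected, led by Gata3 (53.6 ± 3.40 TPM), the T helper 2 factor, Ccr8 (7.18 ± 2.61 TPM) and Prdm1 (5.74 ± 0.992 TPM), which encodes Blimp-1, at a list median of 0.429 ± 0.129 TPM, with no count for Il13. Of 14 AP-1 and NFAT targets of activated T cells 7 were detected, led by Vim (269 ± 13.5 TPM), Cd40lg (269 ± 6.38 TPM) and Cd69 (58.8 ± 7.90 TPM), and Il4 had no count. In this list 1 of the 7 genes tested, Il2ra, was called variable, with an edgeR adjusted p of 1.19e-07. Of all genes tested 1.13% were called. Of 14 genes that Batf raises in effector regulatory T cells 10 were detected, led by Tnfrsf18 (107 ± 3.80 TPM), Tnfrsf1b (66.5 ± 3.79 TPM) and Icos (38.5 ± 4.64 TPM), with no count for Areg.

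Overlapping genes bear on the counts of some factors. None of the 10 shares exon bases with another gene on its own strand in the deposited tables. On the opposite strand, 48.8% of the 50-base words of Jund lie in Gm11175 (8.40 ± 0.922 TPM), 5.88% of those of Junb in Prdx2 (61.6 ± 0.518 TPM), 5.73% of those of Jun in Junos (0.411 TPM) and 5.55% of those of Bach2 in Bach2os (0.0129 TPM). Batf, Fos, Bach1, Fosl2 and Fosb shared no such word with another gene.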

How the data were processed

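The 4 tables hold counts of read pairs per gene, made by the authors with featureCounts 1.4.6-p4 against GENCODE M13 exons on mm10, with strand option 2, per the file headers. The input alignment files are named for STAR. The molecule is labelled total RNA, but a polyA+ RNA protocol is cited for library construction. The exon length per gene came with the deposited counts and gave TPM. Multimapping or multi-overlap options were not set in the header, so reads shared between genes would be left out.

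Symbols came from GENCODE M21. Differences were taken on log2(TPM + 0.1) and tested by exact two-sided sign flips over 4 libraries, with 16 sign patterns. Spread was tested with edgeR 4.0.16 (filterByExpr, TMM, intercept-only glmQLFit, trended dispersion, residual deviance on 3 degrees of freedom, adjusted p threshold 0.05), and the script was tested on simulated data. DESeq2 1.42.0 was an alternative. Total counts ran from 23000465 to 62090744. The lowest chi-square per degree of freedom between a pair of libraries was 6.71, more than counting noise, so none is a second deposit of the same counts; this does not tell separate cultures from repeat libraries of 1 RNA.

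The members and the 19 other lists (182 genes) were chosen with earlier results of these data known. Of each other list the 3 highest genes, the 1 lowest and any called variable are named, besides Foxp3; 1 gene this rule selects is not reported here.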

Additional observations from a re-analysis of the deposited data

Results flagged for a closer look

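In 9 of 104 groups of 4 values, 1 library lay far from the other 3. Chance gives about 1 in 20 for normally distributed values, which counts near 0 are not. For Fosl1, Cd14 and Xcr1, with 1 count in 1 library only, the outcome was fixed by that count, so the tally is no measure of excess. Among the factors this was Fosl1, with 0.0327 TPM in 1 library on 1 count and none in the others. Prkcq stood at 289 TPM in 1 library, against 255 to 261 TPM in the others. Cd69, an early activation marker, stood at 70.6 TPM, against 54.7 to 55.1 TPM. Fth1 was low in 1 library at 1505 TPM, against 1633 to 1644 TPM, Cd40lg at 259 TPM, against 271 to 273 TPM, and Trac at 3229.9 TPM, against 3483 to 3516 TPM. Cd14 (0.0363 TPM) and Xcr1 (0.0336 TPM) had counts in 1 library only, and Cpa3 had 0.263 TPM in 1 library, against 0 to 0.0368 TPM in the others.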

How the results depend on the processing

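Over 15 neighbour pairs and family ratios and their alternatives, 101 of 105 comparisons kept their direction, and the other 4 turned on CPM without length correction. These were Batf to Bach2 at -3.12 (counted as a pair and as a ratio), Fos to Bach1 at -1.08 and Batf to the Fos family at -0.62, each on the log2 scale. Every comparison had the same sign in all 4 libraries. Leaving out a library, or adding 1 TPM in place of 0.1, could therefore not turn any of them. Only CPM and the longest transcript's length could do so. With the longest transcript's length, Batf to Bach2 fell to 0.10, with an exact p of 0.375. On TMM-scaled CPM 5 of the 10 factors kept their place in the order. Genes called variable numbered 142, against 88 with no filter on low counts, 352 at a common dispersion and 60 to 85 with each library left out in turn. No setting called a factor variable. With 3 libraries the smallest exact p is 0.25. No paired analysis was possible because the libraries form 1 group. Depth limits Fosl1 and Fosb.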
